A study of Saccharomyces cerevisiae SK1 with 28 samples.

Results

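Promoter occupancy was followed in yeast cells 5.5 h, 6 h 45 min and 8 h after their transfer into sporulation medium, the starvation medium in which diploid budding yeast enter meiosis and form spores. All genes listed at each time were followed through the course within each replicate. The time course comprises 6 ChIP libraries of the 28 libraries in the series, with replicates 1 and 2 at each time, chosen by their labels. All 6 came from wild-type SK1, a laboratory strain that sporulates efficiently. The cells had been grown to saturation in YPD and then in BYTA, a presporulation medium, before being washed and moved. Input libraries exist for the same times and were not analysed here. The labels give neither the immunoprecipitated protein nor whether the libraries of a replicate number came from a single culture, so any p-value measures only the spread between these libraries, which may be technical. The series as a whole asks where promoters are occupied in growing, stressed, starved and meiotic cells, under a title that names the unfolded protein response (UPR).

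Each library had 1 deposited table, in which a row joins a peak summit to a 600 bp promoter window and its gene. The 6 tables held 70 summits at 23 promoter loci, 15 of them shared by the windows of a divergent gene pair and 8 in the window of a single gene. Together they named 38 of the 551 genes listed anywhere in the series, and 0.631% of the 6021 protein-coding genes of the RefSeq annotation of the R64 reference assembly. Of these loci, 21 were also listed in at least 1 of the other 8 ChIP libraries of the series, counting either gene of a pair. Those libraries listed from 17 to 360 genes each, and no share over all genes was computed for this count. The sources used here do not give the rule by which summits entered a table. A promoter that is not listed is therefore not shown to be unoccupied. The tables hold no reads, so sequencing depth is unknown.

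As background, misfolded protein in the endoplasmic reticulum (ER) activates the kinase and nuclease Ire1, which splices the HAC1 mRNA. The Hac1 transcription factor then raises expression of genes such as KAR2, which encodes the ER chaperone BiP, and PDI1, which encodes protein disulfide isomerase. In meiosis, the early genes act in DNA replication and recombination, and the middle genes, activated by Ndt80, act in the divisions and in building the spore wall.

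There were 4 promoter loci listed in every library of the course. The KAR2 promoter was the single locus absent from both tables at 5.5 h and present in all 4 later ones. The loci listed throughout were the divergent pairs TPM1 with NIS1, MRPS17 with GCV2, and MBF1 with BUD7, and the single gene HSH49. These 7 genes, 0.116% of protein-coding genes, were the genes listed in both libraries at 5.5 h (0.116%). The pair of libraries at 6 h 45 min shared 13 genes (0.216%), and the pair at 8 h shared 17 (0.282%). The number listed in all 6 libraries rests on the table of replicate 1 at 5.5 h, which held 4 summits. The absence of KAR2 in replicate 1 rests on the same table. Without it, 11 genes were listed in all 5 remaining libraries, the additions being ARG82 with HMO1 and YAP1802 with FMP43.

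**Figure D1:**
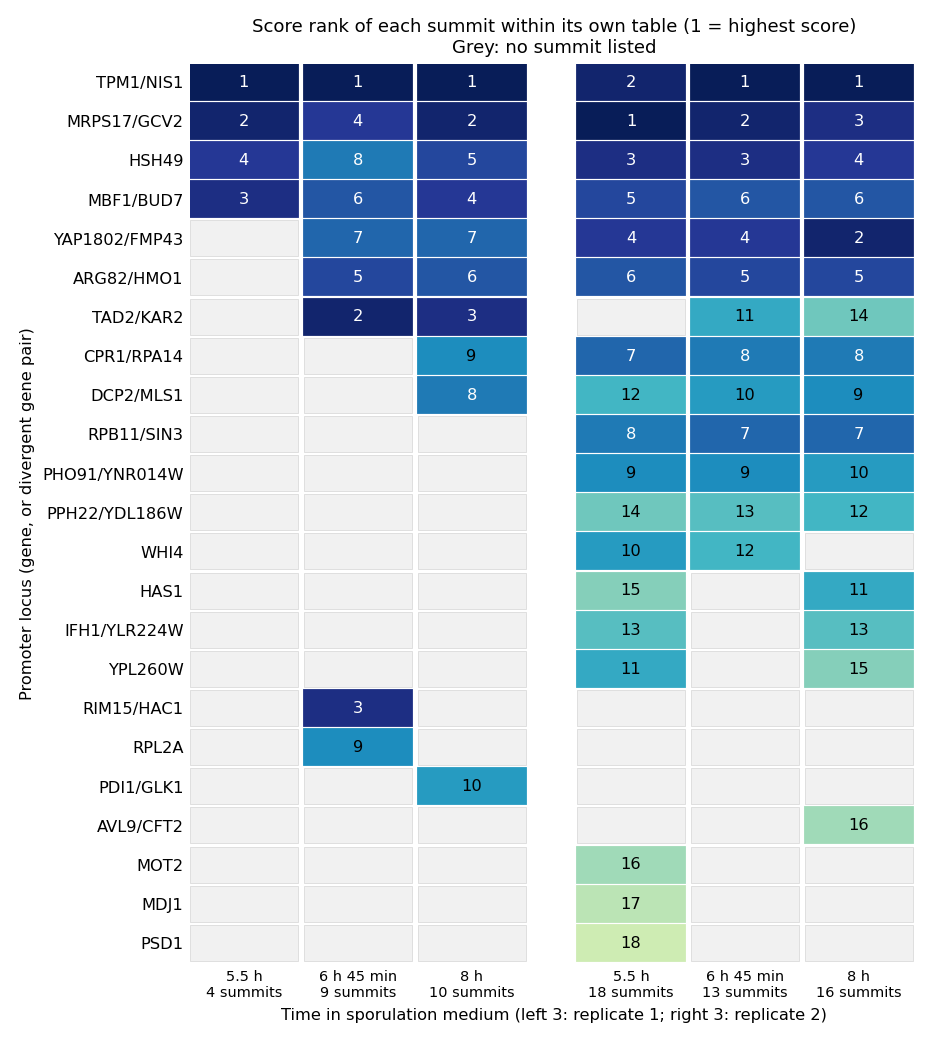
Score rank of every listed summit within its own table (1 is the highest score), with promoter loci in rows and the 6 libraries in columns, replicate 1 on the left and replicate 2 on the right. Grey cells had no listed summit. The 4 loci in the top rows are filled in all 6 columns, while KAR2 with TAD2 is filled at the later times only.

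No trend of the number of listed genes with time was detected beyond the spread between libraries. Replicate 1 listed 7, 16 and 19 genes at the successive times. Replicate 2 listed 29, 24 and 29 genes at the same times. It thus listed more genes than replicate 1 at every time, and as many at the end as at the start. The means were 18 ± 15.6, 20 ± 5.66 and 24 ± 7.07 genes (SD, n = 2 each), and the fitted slope was 2.4 genes per hour (two-sided exact permutation test over 90 assignments of the 6 libraries, p = 0.578, smallest possible p = 0.0222). Without the library of replicate 1 at 5.5 h the slope was -1.26 genes per hour (exact permutation test, p = 0.667).

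The number of listed summits and the number of called peaks did not follow the same order over the 6 libraries. Peak numbers followed chromosome name and position in each of the 14 tables of the series, so, if peaks were numbered along the genome, the number carried by the HSH49 summit on chromosome XV, listed in all 6 tables, counts the peaks called ahead of it with itself. It was 1494, 3099 and 1713 in replicate 1 and 1752, 1850 and 2839 in replicate 2, in order of time. The highest value belonged to replicate 1 at 6 h 45 min, whose table held 9 summits. The table with the most summits, 18 in replicate 2 at 5.5 h, had a number of 1752, while the shortest, with 4, had the lowest. The highest listed peak number, a lower limit for the whole call, had a slope of 269.6 per hour (exact permutation test, p = 0.378). Listed summits were between 0.268% and 1.02% of that number.

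**Figure D2:**
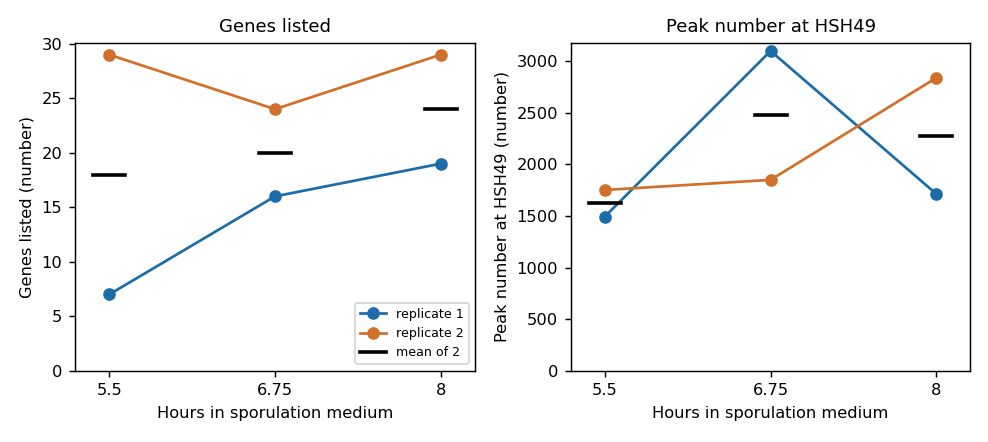
Number of genes listed (left) and peak number of the HSH49 summit (right) against hours in sporulation medium, with lines joining the libraries of a replicate number and black bars for the mean of 2. Replicate 2 lists 24 to 29 genes at each time and replicate 1 lists 7 to 19, while the peak number is highest at 3099 in replicate 1 at 6 h 45 min.

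Each gene was assigned within a replicate to a time class. Persisting genes were listed at all 3 times, appearing genes were absent at 5.5 h and listed at 8 h, and genes that dropped out were listed at 5.5 h and absent at 8 h. Transient genes were listed at the middle time alone, and interrupted genes at the outer times alone. In replicate 1, 7 genes persisted (0.116%), 12 appeared (0.199%), 3 were transient (0.0498%) and 0 dropped out. In replicate 2, 21 genes persisted (0.349%), 4 appeared (0.0664%), 4 dropped out (0.0664%) and 4 were interrupted (0.0664%). Of the 23 loci, 5 had the same class in both replicates, the 4 persisting loci and KAR2 with TAD2. The latter pair were the 2 genes that appeared in both replicates, 0.0332% of protein-coding genes.

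The TPM1 and NIS1 promoter on chromosome XIV had the highest score in 5 of the 6 tables. TPM1 (YNL079C, SK1_14G02290, window chrXIV:482298-482897) encodes the major tropomyosin of actin cables, and NIS1 (YNL078W, SK1_14G02300, window chrXIV:482304-482903) encodes a bud neck protein. Positions follow the SK1 assembly of the tables, which is not named. The deposited score, the authors' own value of unnamed type that is compared within a table except where a score minimum is named, was 1200.1, 1582 and 1347 in replicate 1, in order of time. In replicate 2 it was 2035, 1224 and 1708. The summit held rank 1 everywhere except in replicate 2 at 5.5 h, where it was 2 of 18. It lay 196 to 214 bp upstream of TPM1 and 393 to 411 bp upstream of NIS1, so it was nearer to TPM1.

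The promoter between MRPS17 and GCV2 on chromosome XIII ranked between 1 and 4. MRPS17 (YMR188C, window chrXIII:610094-610693) encodes a protein of the mitochondrial small ribosomal subunit, and GCV2 (YMR189W, window chrXIII:609989-610588) encodes the P subunit of glycine decarboxylase. Its ranks were 2 of 4, 4 of 9 and 2 of 10 in replicate 1, with scores of 378, 574 and 1018. In replicate 2 they were 1 of 18, 2 of 13 and 3 of 16, with scores of 2105, 1210.5 and 1299. For replicate 1 the score came to 31.5%, 36.3% and 75.6% of the highest of its table, in order of time. For replicate 2 it came to 100%, 98.9% and 76.0%. The summits lay 186 to 196 bp upstream of MRPS17 and 300 to 310 bp upstream of GCV2.

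MBF1 with BUD7 and HSH49, both on chromosome XV, completed the persisting loci. MBF1 (YOR298C-A, window chrXV:848166-848765) encodes a coactivator that bridges Gcn4 and the TATA-binding protein, and BUD7 (YOR299W, window chrXV:848315-848914) encodes a cargo adaptor of exomer. Their shared summit ranked 3 of 4, 6 of 9 and 4 of 10 in replicate 1, with scores of 258, 392 and 905. The ranks in replicate 2 were 5 of 18, 6 of 13 and 6 of 16, with scores of 1559, 696 and 1238. It lay 243 to 263 bp upstream of MBF1 and 487 to 507 bp upstream of BUD7. HSH49 (YOR319W, SK1_15G04290, window chrXV:882704-883303) encodes a U2 snRNP subunit of the spliceosome. Its summit ranked 4 of 4, 8 of 9 and 5 of 10 in replicate 1, with scores of 247, 365 and 892. The ranks in replicate 2 were 3 of 18, 3 of 13 and 4 of 16, with scores of 1673, 886 and 1294. It lay 175 to 181 bp upstream of the gene, and the gene upstream of HSH49 in R64, FAA1, runs in the same direction. Both loci were persisting in both replicates. HSH49 was the lowest-scored of the 4 summits of replicate 1 at 5.5 h and ranked 3 of 18 in replicate 2. Among the 4 loci that these tables shared, it took place 4 in replicate 1 and place 3 in replicate 2.

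Ranks from tables of unequal length are not comparable, so loci were also ordered by score among those that a pair of tables shared. In replicate 1 the order TPM1, MRPS17, MBF1 and HSH49 was the same at all 3 times. In replicate 2, HSH49 scored above MBF1 at all 3 times, and MRPS17 stood ahead of TPM1 at 5.5 h only. The 11 loci that persisted in replicate 2 kept a close order as well. Those loci were the 4 above with YAP1802, ARG82, CPR1, RPB11, PHO91, DCP2 and PPH22 and their partners. YAP1802 with FMP43 moved from place 4 at 5.5 h and at 6 h 45 min to place 2 at 8 h, and MRPS17 with GCV2 went through places 1, 2 and 3. PPH22 with YDL186W held place 11 throughout. With each time pair taken over the loci it shared, the largest shift in replicate 1 was 2 places between 6 h 45 min and 8 h (7 loci). In replicate 2 it was 1 place between 5.5 h and 6 h 45 min (12 loci) and 2 places between 6 h 45 min and 8 h (12 loci). Between 5.5 h and 8 h it was 4 places (14 loci), for YPL260W.

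**Figure D3:**
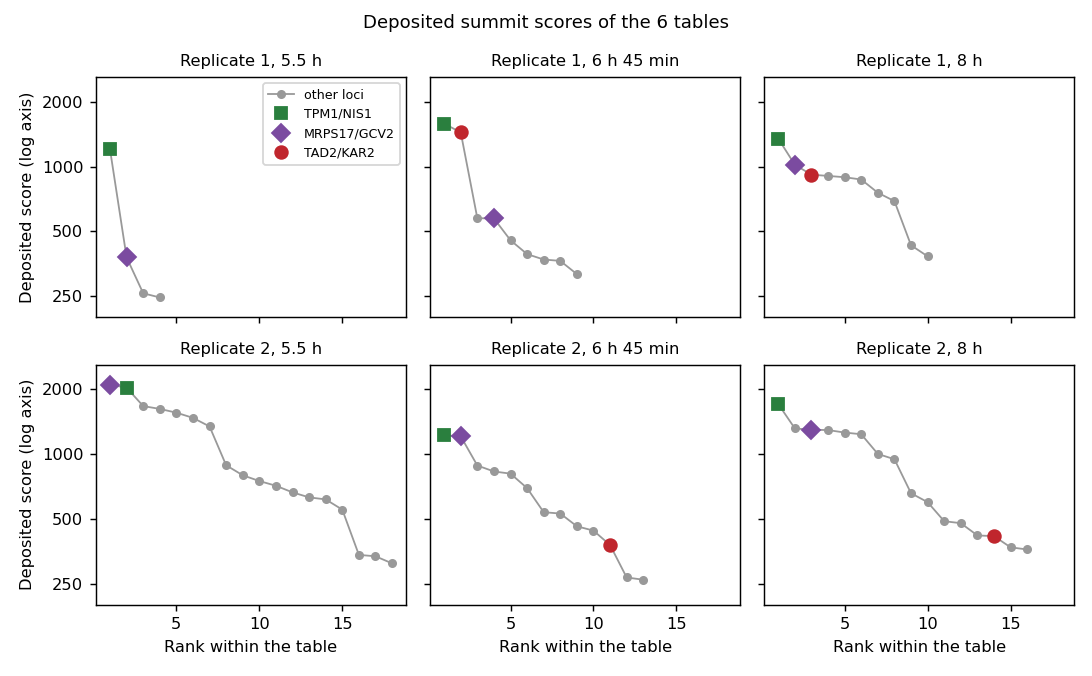
Deposited score (log axis) against rank within each of the 6 tables, with the summits of TPM1 with NIS1, MRPS17 with GCV2 and KAR2 with TAD2 marked. KAR2 with TAD2 stands at rank 2 and 3 in replicate 1 and at rank 11 and 14 in replicate 2, and has no point at 5.5 h.

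KAR2 with TAD2 was the locus that appeared in both replicates. KAR2 (YJL034W, SK1_10G01690, window chrX:391422-392021) encodes BiP, and TAD2 (YJL035C, SK1_10G01680, window chrX:391697-392296) encodes a subunit of a tRNA adenosine deaminase. Neither table at 5.5 h listed it. That of replicate 1 held 4 summits and also lacked the 4 loci that appeared in replicate 1 and persisted in replicate 2. The absence of a locus from that table therefore carries little weight. At 6 h 45 min the score of KAR2 with TAD2 was 1439.7 in replicate 1, rank 2 of 9, and 379 in replicate 2, rank 11 of 13. At 8 h the scores were 917, rank 3 of 10, and 417, rank 14 of 16. In the tables as deposited, the replicates therefore shared the time of first listing and differed in where the summit stood in the list. Its score was 91.0% and 68.0% of the highest of its table in replicate 1, and 30.9% and 24.4% in replicate 2.

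The lowest listed score of a table is given for reference, as no rule tying listing to score is known. It was 247 in replicate 1 and 311 in replicate 2 at 5.5 h. At 6 h 45 min the lowest listed scores were 317 and 261, and at 8 h they were 383 and 361. In replicate 2 the KAR2 score was 1.45 and 1.15 times the lowest of its table, and in replicate 1 it was 4.55 and 2.39 times the lowest. Whether scores can be compared between tables is not known, so the part of list thresholds in the absence at 5.5 h was not tested. With a score minimum of 500 set over all 6 tables, which assumes that scores compare between them, 0 genes appeared in both replicates, since neither KAR2 score of replicate 2 passes it. With a minimum of 383.017, the highest of the tables' lowest scores, KAR2 and TAD2 were still the 2 genes that appeared in both. Their replicate 2 score of 379 at 6 h 45 min fell below that minimum. Replicate 2 then first listed them at 8 h, later than replicate 1.

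Among the loci listed in both replicates at 6 h 45 min, KAR2 with TAD2 took place 2 of 7 in replicate 1 and place 7 of 7 in replicate 2. At 8 h it took place 3 of 9 and place 9 of 9. A shift of 5 and then 6 places was the largest of any shared locus at those times. HSH49 shifted by 4 places at 6 h 45 min, and YAP1802 with FMP43 shifted by 5 places at 8 h. TPM1 with NIS1 held place 1 in all 4 of these tables. No test of these orders was made, as each rests on 1 library per replicate and time.

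**Figure D4:**
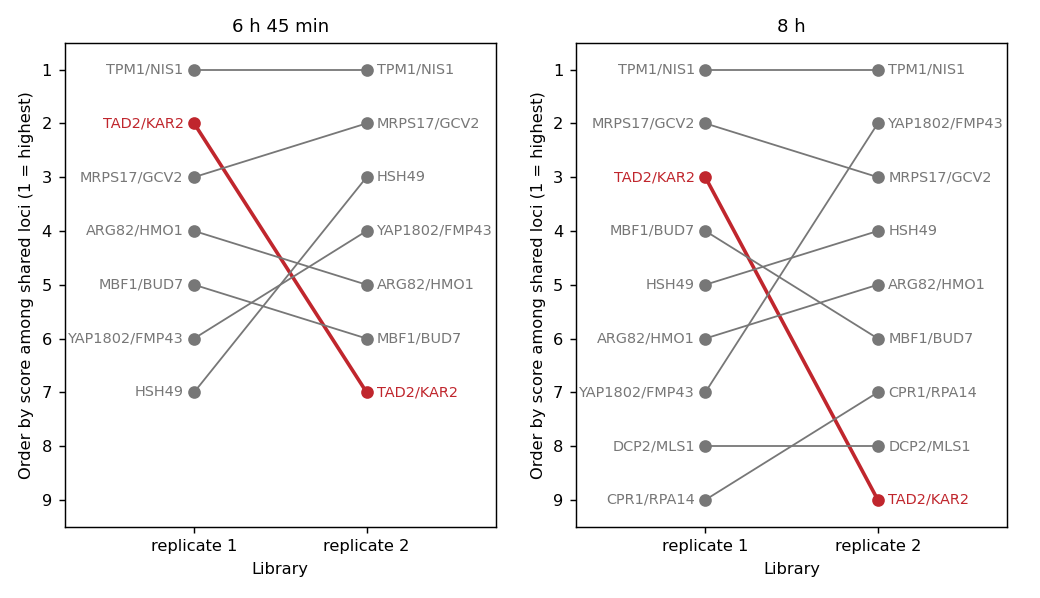
Order by deposited score of the loci listed in both replicates at 6 h 45 min (7 loci, left) and at 8 h (9 loci, right), with a line joining the place of each locus in replicate 1 to its place in replicate 2. The line of KAR2 with TAD2 falls from place 2 to 7 and from place 3 to 9, while TPM1 with NIS1 stays at place 1.

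The KAR2 summits lay 156 to 163 bp upstream of KAR2 and 163 to 170 bp upstream of TAD2, close to the middle of a gap of 326 bp between the gene starts. They stood at position 391866 in replicate 1 at 6 h 45 min, at 391859 in replicate 1 at 8 h, and at 391861 in both libraries of replicate 2. All 4 summits therefore fell within 7 bp. The summit was equally near to both genes in replicate 1 at 8 h and nearer to KAR2 in the other 3 tables. Outside the course, KAR2 or TAD2 was listed in 7 of 8 libraries, the exception being 1 library of 21 h in BYTA, and both vegetative libraries were among them.

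The other UPR promoters listed in the course were found in replicate 1 alone. HAC1 (YFL031W, window chrVI:95498-96097), which shares its summit with the divergent RIM15, was listed in replicate 1 at 6 h 45 min at rank 3 of 9 with a score of 576, 226 bp upstream of HAC1 and 543 bp upstream of RIM15. RIM15 encodes a protein kinase of nutrient signalling that is needed for entry into meiosis. PDI1 (YCL043C, window chrIII:50856-51455), with the divergent glucokinase gene GLK1, was listed in replicate 1 at 8 h at rank 10 of 10, with a score of 383, 241 bp upstream of PDI1. Neither locus was listed in replicate 2 at any time. Outside the course, HAC1 with RIM15 was listed in both libraries of vegetative cells given DTT, a reducing agent that disturbs protein folding, and in both of 6 h in BYTA. PDI1 with GLK1 was listed in 7 of those 8 libraries. The third locus found in replicate 1 only was the ribosomal protein gene RPL2A at 6 h 45 min, rank 9 of 9 with a score of 317 and 371 bp upstream. HAC1 was at 1.82 times the lowest score of its table, while PDI1 and RPL2A were themselves the lowest of theirs.

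There were 4 loci that appeared during the course in replicate 1 and persisted from 5.5 h in replicate 2. ARG82 with HMO1 and YAP1802 with FMP43 entered replicate 1 at 6 h 45 min, and CPR1 with RPA14 and DCP2 with MLS1 entered it at 8 h. ARG82 encodes an inositol polyphosphate kinase, HMO1 a high-mobility-group protein of ribosomal DNA and ribosomal protein genes, YAP1802 a clathrin assembly protein and FMP43 a subunit of the mitochondrial pyruvate carrier. CPR1 encodes cyclophilin A, RPA14 a subunit of RNA polymerase I, DCP2 the decapping enzyme of mRNA decay and MLS1 malate synthase of the glyoxylate cycle. Their class thus depended on the replicate, and all 4 loci were missing from the table of replicate 1 at 5.5 h, with its 4 summits. CPR1 with RPA14 and DCP2 with MLS1 were also missing from that of replicate 1 at 6 h 45 min.

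ARG82 with HMO1 ranked 5 of 9 and 6 of 10 in replicate 1, with scores of 455 and 870.3. Its ranks in replicate 2 were 6 of 18, 5 of 13 and 5 of 16, with scores of 1475, 812 and 1260.4. The summits lay 196 to 211 bp upstream of ARG82 (YDR173C, window chrIV:799819-800418) and 267 to 282 bp upstream of HMO1 (YDR174W, window chrIV:799696-800295). YAP1802 with FMP43 ranked 7 of 9 and 7 of 10 in replicate 1, with scores of 370.2 and 756. Here replicate 2 gave ranks of 4 of 18, 4 of 13 and 2 of 16, with scores of 1623, 831 and 1317. Its summits lay almost equally far from both genes, 361 to 370 bp upstream of YAP1802 (YGR241C, window chrVII:962137-962736) and 385 to 394 bp upstream of FMP43 (YGR243W, window chrVII:962291-962890).

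CPR1 with RPA14 was listed in replicate 1 at 8 h at rank 9 of 10, with a score of 431. The replicate 2 ranks were 7 of 18, 8 of 13 and 8 of 16, with scores of 1345, 530.4 and 948. The summits lay 154 to 169 bp upstream of RPA14 (YDR156W, window chrIV:758986-759585) and 356 to 371 bp upstream of CPR1 (YDR155C, window chrIV:759062-759661). DCP2 with MLS1 was listed in replicate 1 at 8 h at rank 8 of 10, with a score of 691. For replicate 2 the ranks were 12 of 18, 10 of 13 and 9 of 16, with scores of 665, 442 and 659. These summits lay 241 to 273 bp upstream of DCP2 (YNL118C, window chrXIV:408768-409367) and 521 to 553 bp upstream of MLS1 (YNL117W, window chrXIV:408961-409560). By rank, both loci thus stood in the lower part of the table in which replicate 1 first listed them. By score, CPR1 was at 1.13 times the lowest of that table and DCP2 at 1.8 times. In replicate 2, CPR1 stood nearer the middle of its tables, and DCP2 in their lower part.

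A further 3 loci persisted in replicate 2 and were listed in no table of replicate 1. RPB11 with SIN3 ranked 8 of 18, 7 of 13 and 7 of 16, with scores of 888, 538 and 1003. RPB11 encodes a subunit of RNA polymerase II, and SIN3 a subunit of the Rpd3 histone deacetylase complexes, which repress early meiotic genes during growth. The summits lay 374 to 383 bp upstream of RPB11 (window chrXV:296831-297430) and 367 to 376 bp upstream of SIN3 (window chrXV:296980-297579). PHO91, a vacuolar phosphate transporter gene, with YNR014W ranked 9 of 18, 9 of 13 and 10 of 16, with scores of 799, 463 and 599. PPH22, which encodes a catalytic subunit of protein phosphatase 2A, with YDL186W ranked 14 of 18, 13 of 13 and 12 of 16, with scores of 617, 261 and 478. These loci stood in the middle or the lower part of each table and were steady in place.

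The genes that dropped out or were interrupted came from the lower part of replicate 2 at 5.5 h. The 9 best-ranked summits of that table were all listed again at both later times. Below them, WHI4, an RNA-binding protein gene related to WHI3, ranked 10 of 18 with a score of 751, then 12 of 13 with a score of 268 at 6 h 45 min, and was not listed at 8 h. MOT2, MDJ1 and PSD1 were the last 3 summits of the 5.5 h table, ranks 16, 17 and 18 with scores of 341, 336 and 311, and were listed at no later time. MOT2 encodes a ubiquitin ligase of the Ccr4-Not complex, MDJ1 a mitochondrial J-domain chaperone and PSD1 the mitochondrial phosphatidylserine decarboxylase. The last 3 had scores of at most 1.09 times the lowest of their table, and WHI4 of 2.41 times.

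HAS1, IFH1 with YLR224W, and YPL260W were listed in replicate 2 at 5.5 h and 8 h and not in between. HAS1, which encodes an RNA helicase of ribosome assembly, ranked 15 of 18 and then 11 of 16. IFH1, a coactivator gene for ribosomal protein genes, ranked 13 of 18 and then 13 of 16. YPL260W ranked 11 of 18 and then 15 of 16. The table between them was the shortest of replicate 2, with 13 summits. AVL9 with CFT2 was the other locus to appear in replicate 2, at rank 16 of 16 with a score of 361 at 8 h, where CFT2 encodes a cleavage and polyadenylation factor subunit.

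The loci shared by a pair of tables are given as a share of each table. In replicate 2, 12 loci were shared by 5.5 h and 6 h 45 min, 66.7% of the earlier and 92.3% of the later table. The 14 loci shared by 5.5 h and 8 h were 77.8% and 87.5%, and the 12 shared by 6 h 45 min and 8 h were 92.3% and 75%. In replicate 1, all 4 loci of 5.5 h were listed again, making up 44.4% of the table at 6 h 45 min and 40% of that at 8 h, and 7 loci were shared by the later times (77.8% and 70%). The replicates shared 4, 7 and 9 loci in order of time. They made up 100%, 77.8% and 90% of the tables of replicate 1 and 22.2%, 53.8% and 56.2% of those of replicate 2. The number shared cannot exceed the length of the shorter table, and these shares were not tested.

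Summits of a locus listed more than once lay within 32 bp of each other. Over 53 pairs of times within a replicate, at 16 loci, the median distance between summits was 5 bp and the largest 20 bp. Over 20 pairs of replicates within a time, at 9 loci, the median was 4.5 bp and the largest 32 bp, the latter at DCP2 with MLS1 at 8 h, where the positions were 409040 and 409008. The distance over time differed between replicates and pairs of times. From 5.5 h to 8 h the median was 14 bp in replicate 1 (5 to 20 bp, 4 loci) and 2.5 bp in replicate 2 (0 to 13 bp, 14 loci). The 20 bp pair was MBF1 with BUD7 in replicate 1, whose summit went from 848408 at 5.5 h to 848421 and 848428. In replicate 2 the same summit stood at 848420, 848417 and 848422, a range of at most 5 bp.

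TPM1 with NIS1 had lower positions at 8 h than at the earlier times in both replicates, with 482511, 482507 and 482493 in replicate 1 and 482500, 482502 and 482494 in replicate 2. Since TPM1 lies on the minus strand, the 8 h summits were nearer to TPM1 and farther from NIS1. The shift from 5.5 h was 18 bp in replicate 1 and 6 bp in replicate 2. HSH49 had the tightest summits of the loci listed in all 6 tables, at 883123, 883126 and 883128 in replicate 1 and 883124, 883125 and 883129 in replicate 2. HSH49 lies on the plus strand, so its summits also lay nearer to the gene at 8 h in both replicates. The other loci listed in all 6 tables moved away from their nearer gene between 5.5 h and 8 h. The shift away from MBF1 was 20 bp in replicate 1 and 2 bp in replicate 2. That away from MRPS17 was 10 bp and 1 bp, so the 4 loci had no common direction. For HSH49 the replicates lay 1 bp apart at each time, and the summit at 8 h lay 5 bp from that at 5.5 h in both replicates. For TPM1 the replicates lay 11, 5 and 1 bp apart in order of time. No test of these shifts was made, with 2 libraries per time.

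**Figure D5:**
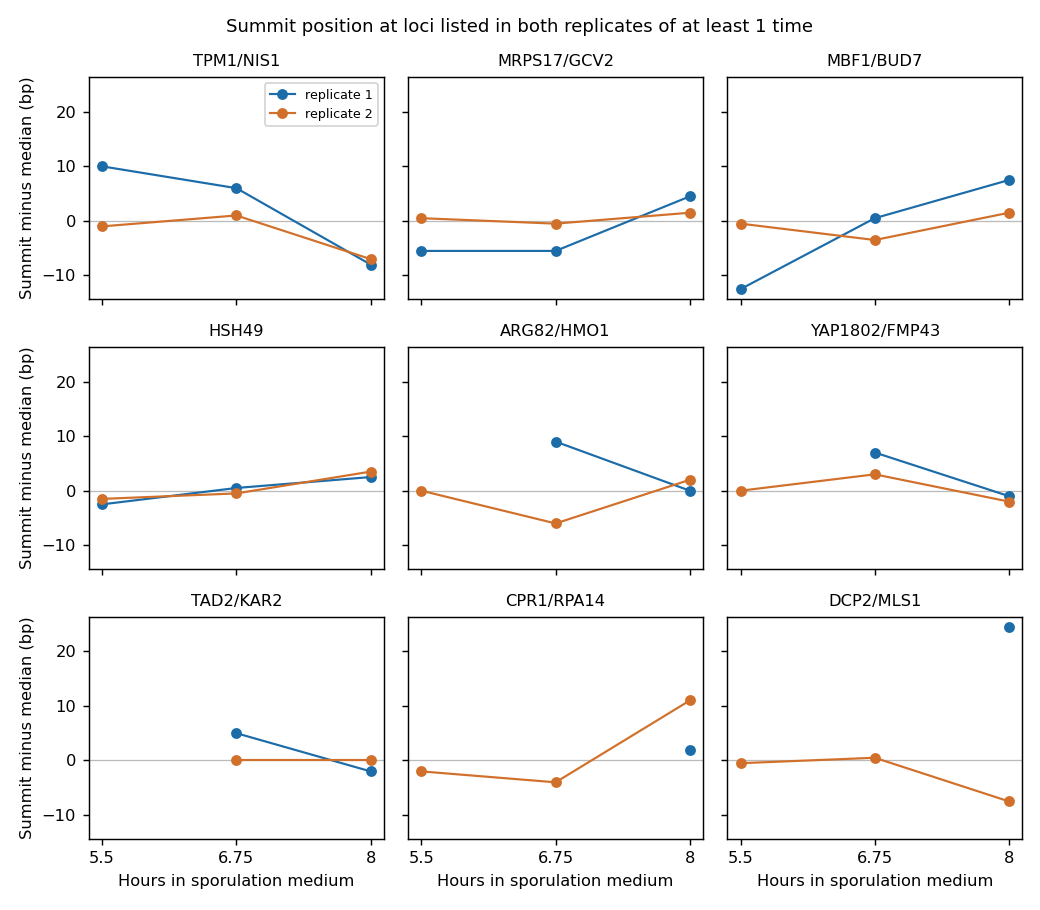
Summit position minus the median of its locus, in base pairs, against hours in sporulation medium for the 9 loci listed in both replicates of at least 1 time, with a line for each replicate. The points of a locus stay within 20 bp of each other, except DCP2 with MLS1, which spans 32 bp.

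Of the 8 loci in the window of a single gene, 5 have an upstream neighbour that runs in the same direction in R64 (HSH49, MDJ1, MOT2, PSD1 and WHI4), 2 have a divergent neighbour (HAS1 and YPL260W) and RPL2A lies next to a non-coding RNA gene. All 4 loci that dropped out in replicate 2 were single-gene windows, beside 8 of all 23 loci. All 5 loci with the same class in both replicates except HSH49 were divergent pairs, beside 15 of all 23 loci. These are counts of few loci and were not tested.

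Members of functional gene lists are counted here beside the 0.631% of all protein-coding genes listed in at least 1 of the 6 tables. Of 19 ER protein folding genes, KAR2 was listed in both libraries at 6 h 45 min and at 8 h, and PDI1 in 1 library, so that 2 of 19 (10.5%) were listed at least once. Of 4 UPR signalling genes, HAC1 was listed in 1 library and 0 in both. Of 23 early meiotic genes and 32 genes of middle meiosis and the spore wall, 0 were listed in any of the 6 tables. The same held for a list of 20 glycolytic and strongly transcribed genes. That list does not include the glucokinase gene GLK1 or the ribosomal protein gene RPL2A, each listed in 1 library. At the background of 0.631%, a list of 20 to 32 genes with 0 members listed is not set apart from other genes. A peak list does not measure expression, so the meiotic state of the cultures could not be checked against these genes.

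Several lists of growth and metabolism had 1 or 2 members shared by the replicates at a given time. Of 20 ribosome assembly genes, HMO1 was listed in both libraries at 6 h 45 min, and HMO1 and RPA14 at 8 h, with HAS1 listed in replicate 2 only. Of 18 genes of mRNA decay and splicing, HSH49 was listed in both libraries at each time and DCP2 joined it at 8 h. TPM1 was the listed member of 18 actin cytoskeleton genes, GCV2 of 10 genes of glycine and one-carbon metabolism, and MLS1 of 17 genes of acetate and glyoxylate metabolism, the last in both libraries at 8 h. These lists were drawn up with earlier results of the same tables known, and their counts stand beside 0.116% to 0.282% of all protein-coding genes at the 3 times.

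Outside the course, 16 of the 23 loci were listed in both libraries of 21 h in BYTA, whose pair of tables shared 27 genes, 0.448% of protein-coding genes. With DTT, 5 of the 23 were listed in both libraries, which shared 282 genes (4.68%). For 6 h in BYTA the number was 4, beside 105 shared genes (1.74%), and for vegetative cells it was 3, beside 15 (0.249%). A locus counted in a library where either of its genes was listed, whereas shared genes were counted singly, so the units differ. IFH1 with YLR224W and WHI4 were the 2 loci listed in no other library of the series. Both were found in replicate 2 alone, at 2 of 3 times each.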

How the data were processed

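ChIP-seq of wild-type SK1 cells was used at 3 times in sporulation medium, with 2 ChIP libraries each. Per the submitters' processing notes, the tools included Bowtie2 (version 2.3.4.1), MACS2 (2.2.9.1), SAMtools (1.7) and ChIPseeker (1.44.0), whose roles and settings are not known here. The SK1 assembly, the control, the score type and the rule of selection are not given in the labels or headers used here. The deposited score of each summit is the authors' value, and per the file headers its type is not named. Summit and window positions are base positions as deposited. Tables were joined to libraries by the library name within the peak names, 1 per table.

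From these, genes with a systematic name were counted per table (all 38 matched RefSeq, R64), summits sharing a gene were joined into loci, and ranks, orders and distances were computed in Python 3.11.15 with NumPy 2.4.6. The gene start was taken as the base next to the window. Gaps between divergent gene starts were within 5 bp of those in R64 for 11 of 15 pairs. Slopes of library numbers on hours were tested with two-sided exact permutation tests at a threshold of 0.05, after the routine had been tested on simulated data. No set test was made. Loci, classes and the 10 gene lists were chosen with earlier results of these data known. Named genes are all genes listed, with values in every library for those listed in both replicates at any time, for those listed in at least 3 tables whose class differed between replicates, and for HAC1 and KAR2; the rest are given by class, with up to 8 examples by rank. Alternatives were nearest gene only, score minima, equal table lengths, either replicate, each replicate alone and the replicate block, with summits in place of genes and only loci listed in all 6 tables for some results. Leaving out the library of 5.5 h replicate 1 and the HSH49 peak number were chosen after the data were seen. A motif search planned for these promoters was not run, as no sequence was used here. Read depth is unknown.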

Additional observations from a re-analysis of the deposited data

How the results depend on the processing

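Counts of listed genes changed with how a summit was assigned and with which summits were kept. With each summit given to its nearest gene alone, ties counting for both, 4, 7 and 9 genes were listed in both replicates at 5.5 h, 6 h 45 min and 8 h. Genes in all 6 libraries were then 4, persisting genes 4 in replicate 1, 10 in replicate 2 and 4 in both, genes appearing in replicate 1 were 7, and 1 gene, KAR2, appeared in both; fewer genes are counted by construction. Score minima assume that scores compare between tables, which is not known. With scores at or above 383.017, the highest of the tables' lowest scores, 2 genes were shared at 5.5 h and 8 at 6 h 45 min, 2 persisted in replicate 1, in both replicates and in all 6 libraries, and 2 appeared and 2 dropped out in replicate 2. With scores of at least 500, 2 genes were shared at 5.5 h and 4 at 6 h 45 min, and 2 persisted in replicate 1, in both and in all 6 libraries. Under that minimum 0 genes appeared in replicate 2 or in both, and 7 dropped out in replicate 2. With the best 4 summits of each table, 4 genes were shared at 6 h 45 min and 4 at 8 h, 4 persisted in replicate 1, in both and in all 6 libraries, and 7 persisted in replicate 2. In replicate 1, 2 genes then appeared, 1 dropped out and 2 were interrupted, while replicate 2 had 0 appearing, 0 dropping out and 0 interrupted, so 0 appeared in both. Listing in either replicate gave 29, 27 and 31 genes at the 3 times. Using all gene identifiers changed none of the 19 counts by construction, as all 38 identifiers in the 6 tables had a systematic name.

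With a single replicate in place of both, the genes listed ranged from 7 to 29 at 5.5 h, 16 to 24 at 6 h 45 min and 19 to 29 at 8 h. Persisting genes ranged from 7 to 21, appearing from 4 to 12, dropping out from 0 to 4, transient from 0 to 3 and interrupted from 0 to 4. The slope of genes ranged from 0 to 4.8 per hour and that of the highest peak number from 87.6 to 452.0 per hour, with no test. Without the library of 5.5 h replicate 1, an alternative chosen after the data were seen, 11 genes were listed in all remaining libraries, and the slope of genes was -1.26 per hour (exact permutation test, p = 0.667). Permuting times within each replicate number, the replicate block, left the slope of genes at 2.4 per hour (exact permutation test, p = 0.333) and that of peak numbers at 270.0 per hour (exact permutation test, p = 0.444). The smallest possible p of this permutation test was 0.0556 for peak numbers. It was higher for genes, since replicate 2 listed 29 genes at both 5.5 h and 8 h. The numbers are not stated to pair the libraries. The difference in listing between replicates correlated between times with r of 0.285 to 0.564 over the 23 loci. These loci were chosen by their listing in the same tables, and replicate 2 listed more genes at every time. The correlation therefore cannot decide whether the numbers pair the libraries. The median summit distance over time stayed between 3 and 8 bp. The motif search was not run, and no read depth was known from which precision could be given.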
